A study of Mus musculus with 5 samples.

Results

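The core and linker histone genes were followed here in hair follicle stem cells of the mouse, 20 days after the start of an induced loss of Polycomb repressive complex 1 (PRC1). Members were the protein-coding features of the deposited table whose symbol begins with Hist1h, Hist2h, Hist3h, Hist4h, H1f, H2af or H3f. They numbered 62 of 30840 features, of which 17431 were protein-coding. By symbol, 51 were replication-dependent histone genes (Hist1h to Hist4h) and 11 were variant histone genes (H1f, H2af, H3f). A further 6 features with these prefixes are pseudogenes or an antisense RNA and are not members. GENCODE M21 lists 82 protein-coding genes with such symbols, and the other 20 were not analysed here.

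PRC1 i2KO animals were K15-CrePR1:Ring1a-/-, Ring1bflox/flox and contributed 3 libraries, numbered 1 to 3. Control animals were Ring1a-/-, Ring1bflox/flox and contributed 2 libraries, numbered 2 and 3. Both groups thus lack Ring1a (Ring1), both carry the floxed Ring1b (Rnf2) alleles, and both were given topical RU-486 (1%) each day over 10 days, starting at postnatal day 50. The Cre transgene, active in keratin 15-expressing cells, was present in PRC1 i2KO animals alone, so its own effect and that of the deletion cannot be told apart. At postnatal day 70, EpCAM+, Sca1-, CD34+ cells with high α6-integrin were sorted (50000 per sample), and polyadenylated RNA was sequenced. Whether libraries within a group derive from different animals is not stated, and the p-values therefore reflect variation among these libraries, possibly technical.

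Histones package DNA: H2A, H2B, H3 and H4 form the nucleosome core and H1 binds the linker DNA. Replication-dependent genes lie in clusters, are transcribed mainly in S phase, and normally give messages that end in a stem-loop in place of a poly(A) tail. Variant genes are transcribed throughout the cell cycle into polyadenylated messages, and PRC1 ubiquitinates histone H2A. The libraries were selected for poly(A), so an ordinary replication-dependent message would be caught poorly. How far the selection set the levels below was not tested.

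The histone mRNA stem-loop, 16 bases on the sense strand, was searched after the stop codon of the longest protein-coding GENCODE M21 transcript of each gene (assembly GRCm38). Other annotated transcripts of a gene were not searched. It was present in 34 of 51 replication-dependent genes, between 21 and 58 bases after the stop codon, and in 1 of 11 variant genes. The forms are shown because they set the H4 genes apart from the other families, which share forms among themselves. They also mark the variant gene built like a replication-dependent gene, with the stem-loop in capitals throughout.
H1, H2A, H2B and H3 genes, 23 members including Hist1h1c: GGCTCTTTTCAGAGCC
H2B and H3 genes, 4 members including Hist1h2bb: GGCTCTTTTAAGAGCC
Hist2h2ac alone: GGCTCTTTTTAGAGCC
H4 genes, 4 members including Hist1h4d: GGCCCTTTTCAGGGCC
H4 genes Hist1h4i and Hist2h4: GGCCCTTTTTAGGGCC
H2afx, the variant gene: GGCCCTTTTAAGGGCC
No form was shared between H4 genes and the other families, and H2afx had a form of its own. Of the 17 replication-dependent genes with no match, 11 had fewer than 60 annotated bases after the stop codon, so the annotation may end before it. H2afx, whose product marks DNA breaks, has a single exon and 822 annotated bases beyond its stem-loop.

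RefSeq promoters (GRCm38.p6, 250 bases before to 50 after the start) were matched to 54 members, 45 replication-dependent and 9 variant, and searched on both strands. CCAAT was in 88.9% of the replication-dependent promoters, in 55.6% of the variant promoters and in 37.4% of all 32851 promoters. TATAAA was in 51.1% of the replication-dependent promoters, in 0 of 9 variant promoters and in 13.6% of all. The octamer ATTTGCAT was in 22.2% of the replication-dependent promoters and in 1.74% of all, and TTTNGCGC was in 24.4% and in 1.38%. These shares differed by family. CCAAT was in 100% of the replication-dependent H1, H2A, H2B and H3 promoters but in 2 of 7 H4 promoters (28.6%). The octamer was in 5 of 14 H2A and 5 of 14 H2B promoters, and TTTNGCGC in 4 of 14 and 7 of 14. Neither was in any replication-dependent H1, H3 or H4 promoter. The windows of some genes lying head to head overlap, such as those of Hist1h2ag and Hist1h2bj. A match in shared bases then counts for both genes, so the replication-dependent shares are not over separate stretches of DNA. AAACACA, the H1 box, was in 3 of 4 replication-dependent H1 promoters and in 7.18% of all. A linker gene, a replication-dependent core gene and a variant gene illustrate the difference, each shown as the 250 bases before the start with the matched letters in capitals.
Hist1h1c, chr13:23738557-23738806, strand +: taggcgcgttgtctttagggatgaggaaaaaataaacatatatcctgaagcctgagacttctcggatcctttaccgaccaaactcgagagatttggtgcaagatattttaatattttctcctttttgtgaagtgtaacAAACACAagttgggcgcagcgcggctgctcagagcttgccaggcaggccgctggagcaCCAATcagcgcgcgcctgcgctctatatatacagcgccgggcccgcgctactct
Hist1h2ab, chr13:23750838-23751087, strand +: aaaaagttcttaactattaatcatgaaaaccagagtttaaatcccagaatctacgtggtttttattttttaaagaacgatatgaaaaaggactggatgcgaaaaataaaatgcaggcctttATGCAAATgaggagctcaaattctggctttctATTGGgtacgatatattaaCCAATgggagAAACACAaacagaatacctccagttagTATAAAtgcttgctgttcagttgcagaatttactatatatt
H2afz, chr3:137864237-137864486, strand +: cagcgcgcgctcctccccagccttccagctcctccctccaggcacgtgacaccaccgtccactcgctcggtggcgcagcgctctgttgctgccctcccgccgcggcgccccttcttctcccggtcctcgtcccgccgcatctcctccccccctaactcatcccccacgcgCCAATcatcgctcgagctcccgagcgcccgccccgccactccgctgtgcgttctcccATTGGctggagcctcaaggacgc
Hist1h1c holds the H1 box and CCAAT. Hist1h2ab holds the octamer, CCAAT on both strands, AAACACA and TATAAA. H2afz holds CCAAT on both strands and none of the other letters searched. These matches describe the windows and were not tied to any level.

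Libraries held between 11626006 and 43307694 counts, Control 3 being the shallowest, and mitochondrial rRNA took between 16.7% and 32.0% of counts. All 14 bulge stem cell markers listed were detected, and they summed to 15064, 14949 and 12287 CPM (library-scaled counts, by TMM) in PRC1 i2KO, against 13698 and 14292 CPM in Control. None of them passed the edgeR adjusted threshold, while 5 were lower (Cd34, Lgr5, Lhx2, Fgf18 and Grem1) and 1 was higher (Krt14) at an unadjusted p under 0.05, these being named after their values were seen. Of all 22181 genes tested, 3.51% were lower and 7.43% higher at that unadjusted level. Summed levels of interfollicular epidermis markers were 1048, 2703 and 1516 CPM in PRC1 i2KO, against 951 and 948 CPM in Control. All 10 had a positive log2 fold change (median 1.36), against 50.4% of all genes tested. By edgeR 0 passed the adjusted threshold, with 4 higher and 0 lower at an unadjusted p under 0.05. Among them Ly6a (Sca1) was at 3.12, 4.78 and 4.93 CPM in PRC1 i2KO, against 1.62 and 0.793 CPM in Control. Fibroblast markers, of which 9 of 10 were in the table, 3 of them under 1 CPM, summed to 63.3, 72.2 and 69.4 CPM in PRC1 i2KO, against 25.6 and 24.9 CPM in Control. All 5 tested fibroblast markers had a positive log2 fold change (median 2.02). By edgeR 0 passed the adjusted threshold, with 3 higher and 0 lower at that unadjusted level. The part of the marked cell types in any result below was not tested. Rnf2 was at 39.9, 33.1 and 36.4 CPM in PRC1 i2KO, against 27.7 and 37.5 CPM in Control, with overlap. In TPM it was at 16.8, 12.9 and 11.7 in PRC1 i2KO, against 25.1 and 24.4 in Control, with every PRC1 i2KO library lower. The whole-gene values do not report on the deleted exons alone.

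The members differed in abundance mainly by class. In TPM (a library-scaled level corrected for transcript length), the 11 variant genes summed to 581, 654 and 600 in PRC1 i2KO, against 631 and 541 in Control. The 51 replication-dependent genes summed to 92.0, 85.8 and 121 TPM in PRC1 i2KO, against 52.0 and 73.2 TPM in Control. In TPM the variant sums of the groups overlapped, and every PRC1 i2KO sum of the replication-dependent genes lay above both Control sums. In CPM the overlap was the other way round. The variant sums were 1079, 938 and 954 CPM in PRC1 i2KO, against 712 and 825 CPM in Control, with no overlap. The replication-dependent sums were 134, 84.1 and 122 CPM in PRC1 i2KO, against 57.1 and 86.0 CPM in Control, and the groups overlapped through PRC1 i2KO 2 and Control 3. With groups of 3 and 2 libraries, the smallest one-sided exact permutation p is 0.1, and no test was made of a sum over members. In bulk samples, a change in the number of cells of a type and in RNA per cell cannot be told apart.

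Of the members, 37 passed the filter on low counts, 27 replication-dependent and 10 variant. In edgeR's quasi-likelihood test with Benjamini-Hochberg adjustment over all 22181 genes tested, 0 of these 37 passed the threshold of 0.05 in either direction. Over all genes, 28 were higher (0.126%) and none was lower (0.0%) in PRC1 i2KO. The split depended on the scale and tool, with 7 higher and 13 lower by limma on log2(TPM + 1) and 745 higher and 163 lower by DESeq2. At an unadjusted p under 0.05, 3 replication-dependent and 2 variant members were higher in PRC1 i2KO and none was lower, against 7.43% of all genes higher and 3.51% lower. The members higher by edgeR at that level were Hist1h1c, Hist1h2ap, Hist1h2bh, H2afj and H2afv, of which Hist1h2ap and Hist1h2bh were named after their values were seen. By limma on log2(TPM + 1), 435 genes were higher and 1283 lower at an unadjusted p under 0.05. Among these were 0 of 21 replication-dependent and 0 of 9 variant members. At the adjusted threshold, DESeq2, limma-voom and limma on log2 TPM also called 0 members.

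The log2 fold change was positive in 10 of 10 tested variant genes (median 0.45) and in 20 of 27 tested replication-dependent genes (median 0.74), against 50.4% of all genes (median 0.0053). Without Control 3, the shallowest library, the medians were 0.78 over 11 variant and 3.52 over 40 replication-dependent genes, a larger set that includes genes with no count in Control 2, whose fitted values are no bounds. On the log2(TPM + 1) scale the medians were 0.23 for 9 variant genes, 0.42 for 21 replication-dependent genes and -0.25 for all genes. Every PRC1 i2KO library exceeded both Control libraries in CPM in 4 of 10 tested variant genes and 4 of 27 tested replication-dependent genes, against 14.6% of all genes tested. In TPM the counts were 3 and 3, against 7.01%. The reverse order, with every PRC1 i2KO library below both Control libraries, was seen in 15.3% of all genes in CPM and 23.0% in TPM. In CPM it was seen in 1 of 27 tested replication-dependent genes, Hist2h3c2 (named after its values were seen), and in 0 of 10 tested variant genes. In TPM it was seen in 2 of 27, Hist2h3c2 and Hist1h2be, and in 1 of 10, H3f3a.

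**Figure D1:**
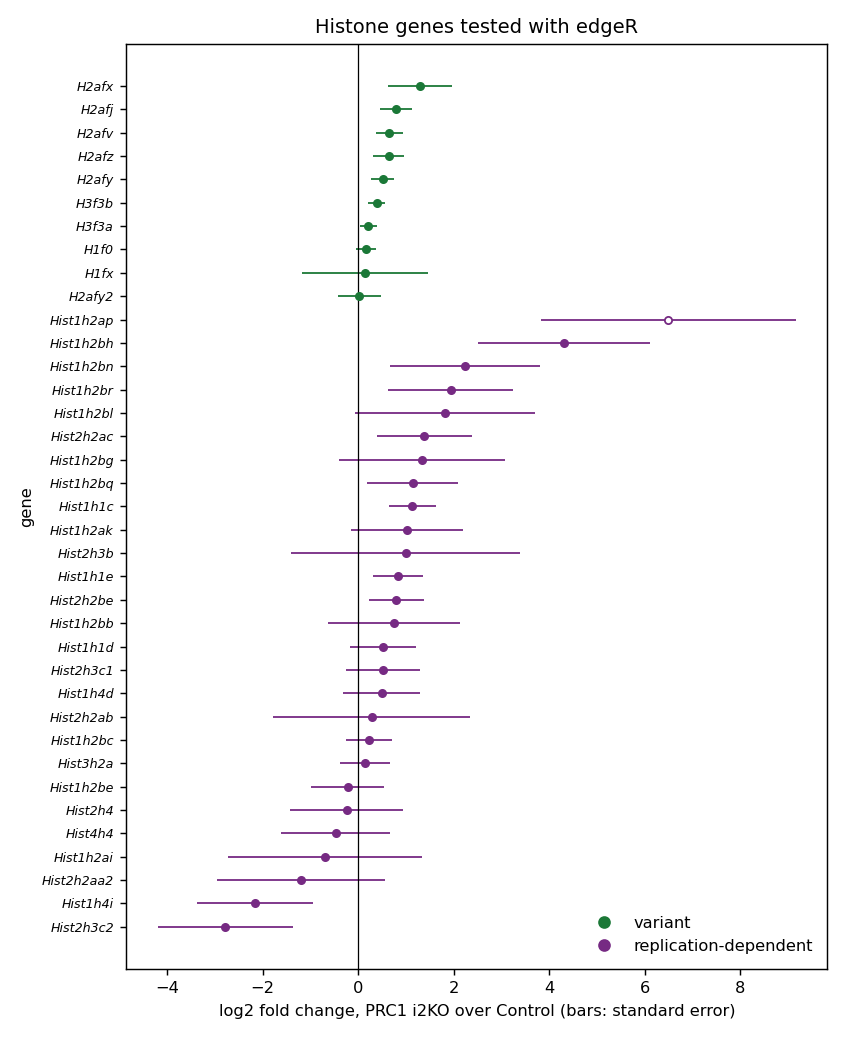
Log2 fold change (PRC1 i2KO over Control, x axis) of the 37 tested histone genes (y axis), with standard errors as bars, variant genes above replication-dependent genes. An open symbol marks Hist1h2ap, which had no Control count, so that its fitted value is no bound. The variant genes lie between 0.02 and 1.30, and the replication-dependent genes spread on both sides of 0. Standard errors run from 0.18 (H3f3b) to 1.32 (H1fx) in variant genes. In replication-dependent genes they run from 0.48 (Hist1h2bc) to 2.66 (Hist1h2ap).

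Among linker histones, the variant H1f0, a linker histone typical of quiescent and differentiated cells, was the most abundant. It stood at 59.8, 63.1 and 56.0 TPM in PRC1 i2KO, against 61.7 and 68.1 TPM in Control. The ranges overlapped, and the log2 fold change was 0.16 ± 0.22 (SE) with an edgeR adjusted p of 0.846, turning to -0.12 on the log2(TPM + 1) scale. H1fx was below 1 TPM in every library. H1fnt, a testis linker histone, had counts in PRC1 i2KO 2 alone, where it had 76.

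Hist1h1c was the highest replication-dependent linker gene. It had 14.6, 14.9 and 8.66 TPM in PRC1 i2KO, against 4.33 and 9.32 TPM in Control, and 27.4, 21.8 and 15.1 CPM against 5.06 and 14.8 CPM. In CPM all PRC1 i2KO libraries lay above both Control libraries, PRC1 i2KO 3 only just, while in TPM the groups overlapped. Its log2 fold change was 1.13 ± 0.49 (SE), with an unadjusted p of 0.047 and an edgeR adjusted p of 0.449. Hist1h1e, another somatic linker gene, had 6.34, 4.07 and 3.74 TPM in PRC1 i2KO, against 2.63 and 3.86 TPM in Control, with overlapping groups (0.83 ± 0.52 on the log2 scale, edgeR adjusted p 0.619). The 5 replication-dependent H1 genes together gave 21.5, 19.9 and 19.4 TPM in PRC1 i2KO, against 7.35 and 13.7 TPM in Control.

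The H2A variants were led by H2afz and H2afv, which encode the H2A.Z proteins found at promoters. H2afz had 79.4, 62.4 and 117 TPM in PRC1 i2KO, against 69.1 and 73.0 TPM in Control. PRC1 i2KO 3 was highest and PRC1 i2KO 2 lowest, so the groups overlapped (log2 fold change 0.64 ± 0.33, edgeR adjusted p 0.535). H2afv had 44.3, 55.7 and 56.6 TPM in PRC1 i2KO, against 38.4 and 30.3 TPM in Control. Here the groups did not overlap, with a log2 fold change of 0.65 ± 0.29 and an edgeR adjusted p of 0.457.

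H2afy and H2afy2 encode macroH2A histones, which carry a large additional domain. H2afy had 23.4, 29.9 and 27.7 TPM in PRC1 i2KO, against 21.6 and 22.5 TPM in Control. The groups were apart but close (log2 fold change 0.51 ± 0.24, edgeR adjusted p 0.482). H2afy2 had 6.57, 4.33 and 4.41 TPM in PRC1 i2KO, against 9.86 and 3.57 TPM in Control, and the Control libraries enclosed all PRC1 i2KO values (0.02 ± 0.45, edgeR adjusted p 0.994).

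H2afj, whose product H2A.J has been linked to senescence in human fibroblasts, had 11.0, 14.3 and 10.1 TPM in PRC1 i2KO, against 7.25 and 8.02 TPM in Control. Its groups did not overlap in TPM or CPM, and its edgeR adjusted p of 0.431 was the smallest among the variants (log2 fold change 0.80 ± 0.33). H2afx had 7.80, 3.02 and 6.34 TPM in PRC1 i2KO, against 2.11 and 3.68 TPM in Control. PRC1 i2KO 2 lay between the Control values, and the log2 fold change was 1.30 ± 0.66 (edgeR adjusted p 0.530).

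**Figure D2:**
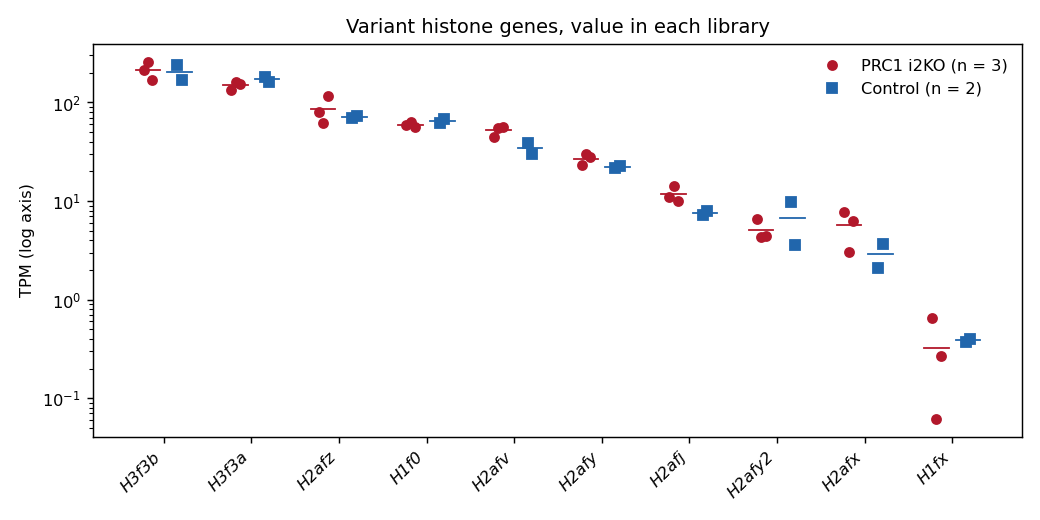
TPM (y axis, log scale) of the 10 tested variant histone genes (x axis) in each PRC1 i2KO library (circles) and Control library (squares), with horizontal lines at the group means. H3f3b and H3f3a are the highest and H1fx the lowest, and the groups stand apart for H2afv, H2afy and H2afj, higher in PRC1 i2KO, and for H3f3a, lower in PRC1 i2KO.

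Among replication-dependent H2A genes, Hist3h2a was the highest by mean TPM, with 11.2, 3.82 and 4.83 TPM in PRC1 i2KO, against 9.73 and 6.13 TPM in Control. The Control values lay inside the PRC1 i2KO range (log2 fold change 0.14 ± 0.53, edgeR adjusted p 0.958). Hist2h2ac had 4.19, 4.63 and 11.2 TPM in PRC1 i2KO, against 1.11 and 4.96 TPM in Control. Hist1h2ak had 2.45, 3.74 and 6.90 TPM in PRC1 i2KO, against 0.632 and 4.43 TPM in Control. Both were highest in PRC1 i2KO 3 and lowest in Control 2, with overlapping groups and edgeR adjusted p of 0.677 and 0.814. Hist1h2ap had the smallest edgeR adjusted p of the class (0.434), with 0, 26 and 14 counts in PRC1 i2KO and no count in either Control library.

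Hist1h2bc led the H2B genes and all replication-dependent genes. It had 8.83, 12.7 and 10.5 TPM in PRC1 i2KO, against 6.70 and 14.6 TPM in Control, the Control libraries enclosing the others (log2 fold change 0.23 ± 0.48, edgeR adjusted p 0.912). Hist2h2be had 3.83, 3.60 and 7.20 TPM in PRC1 i2KO, against 6.25 and 1.36 TPM in Control, again with overlap. Hist1h2be stayed under 1 TPM in every library.

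Other H2B genes varied widely between libraries of a group. Hist1h2bl had 1.02, 0.905 and 14.2 TPM in PRC1 i2KO, against 0 and 3.72 TPM in Control. Hist1h2bn had 3.70, 12.5 and 0.422 TPM in PRC1 i2KO, against 3.02 and 0 TPM in Control. Hist1h2bg had 7.28, 0.583 and 2.28 TPM in PRC1 i2KO, against 0 and 3.26 TPM in Control. The highest library was thus a different PRC1 i2KO library for each of these, and the groups overlapped for all of them (edgeR adjusted p 0.788, 0.669 and 0.839). Hist1h2br had 3.72, 0.732 and 4.40 TPM in PRC1 i2KO, against 0.357 and 0.557 TPM in Control, apart in TPM but not in CPM (edgeR adjusted p 0.650).

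Such single-gene values are uncertain because the genes resemble each other. A median of 49.7% of the 50-base stretches of a replication-dependent transcript also occurred in another annotated transcript, against 2.25% for variants, and 25 of 51 genes shared more than 50%. Of the members' nonzero counts, 80.9% were not whole, being estimates. The sources used here do not say whether counting was stranded.

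The most abundant members of all were the H3 variants H3f3b and H3f3a, which encode the same H3.3 protein, deposited outside replication. H3f3b had 215, 259 and 168 TPM in PRC1 i2KO, against 239 and 170 TPM in Control (log2 fold change 0.38 ± 0.18, edgeR adjusted p 0.483). H3f3a had 133, 161 and 154 TPM in PRC1 i2KO, against 182 and 162 TPM in Control. Every PRC1 i2KO value of H3f3a was below both Control values in TPM, yet its log2 fold change in the count test was 0.21 ± 0.18 (edgeR adjusted p 0.740), so its direction depended on the scale. H3f3b depended on the scale as well: it overlapped in TPM, while in CPM it had 528, 492 and 384 in PRC1 i2KO, against 364 and 353 in Control, with no overlap.

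Replication-dependent H3 and H4 genes were low. Hist2h3c1 had 4.27, 2.44 and 3.42 TPM in PRC1 i2KO, against 0.936 and 4.54 TPM in Control. Hist1h4d had 1.06, 3.01 and 3.17 TPM in PRC1 i2KO, against 1.16 and 2.79 TPM in Control. Neither separated the groups (edgeR adjusted p 0.866 and 0.885). Hist2h4 lay between 0.116 and 1.43 TPM. The H4 genes together were the one replication-dependent family with a lower mean in PRC1 i2KO, with 2.24, 8.21 and 6.08 TPM against 8.19 and 5.03 TPM in Control. In Control 2 most of that sum was Hist1h4i, named after its values were seen, at 6.46 TPM, against 0.208 TPM in Control 3 and 0.265, 0.620 and 0.732 TPM in PRC1 i2KO.

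**Figure D3:**
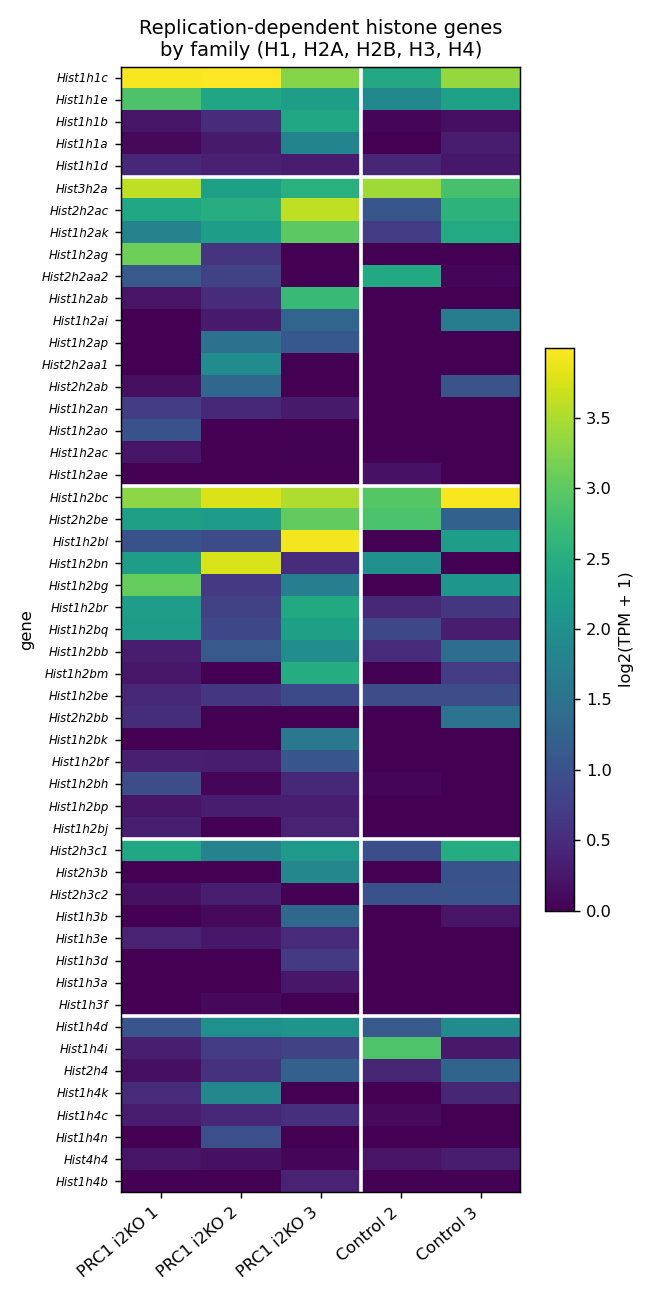
Level, as log2(TPM + 1), of the 51 replication-dependent histone genes (rows, by family and mean level) in each library (columns, PRC1 i2KO left of Control). Few genes are high in all 5 libraries, and many low genes are brightest in PRC1 i2KO 3.

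Detection was sparse. A count was present in every library for 18 of 51 replication-dependent genes, 17 had none in either Control library, and 1, Hist1h2ae (named after its values were seen), had none in PRC1 i2KO. These shares were 33.3% and 1.96%, against 8.58% and 4.59% of all features, and the PRC1 i2KO libraries together held 103439092 counts, against 54542196 in Control. Per library, 39, 40 and 40 replication-dependent genes had a count in PRC1 i2KO, against 24 and 29 in Control. Over all features a count was present for 79.5%, 85.4% and 86.2% in PRC1 i2KO, against 86.5% and 81.3% in Control. Mean levels reached 1 TPM in 21 genes and 5 TPM in 4. The 24 genes that did not pass the filter had mean levels of at most 1.63 TPM.

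Genes were divided by annotated transcript end, since a transcript that runs on past its stem-loop can be polyadenylated. The 21 genes with at least 300 bases after the stop codon held 89.2%, 87.6% and 78.3% of replication-dependent counts in PRC1 i2KO, against 95.8% and 89.9% in Control. Hist1h1c, Hist3h2a and Hist2h3c1 carry 840, 1643 and 1167 annotated bases beyond the stem-loop, whereas Hist1h2ab carries 11. Longer transcripts collect more counts, so this share describes counts and not molecules. The long-end genes Hist1h2bc, Hist1h2bq, Hist1h2br and Hist2h2be had no stem-loop match in the transcript searched, so the ground given does not cover them. The median of mean TPM per gene was 0.748 for long-end and 0.594 for short-end genes. In TPM the long-end genes summed to 60.4, 49.2 and 54.9 in PRC1 i2KO, against 42.3 and 47.4 in Control. The 30 short-end genes summed to 31.6, 36.6 and 65.9 TPM in PRC1 i2KO, against 9.70 and 25.8 TPM in Control. In TPM each PRC1 i2KO library exceeded both Control libraries for either sum, the short-end sum mostly in PRC1 i2KO 3, and Control 2 was the lowest library for each. In CPM the long-end sums overlapped, with 73.7 in PRC1 i2KO 2 and 77.4 in Control 3.

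**Figure D4:**
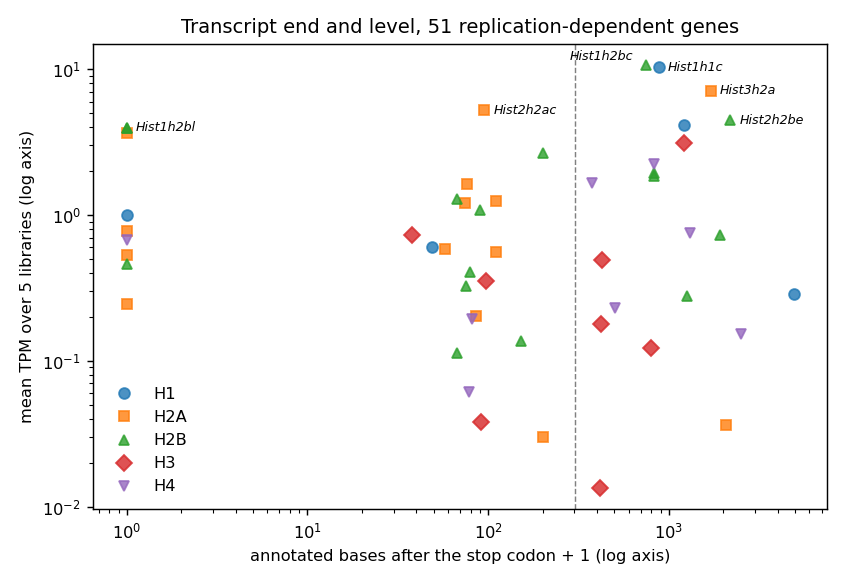
Mean TPM over 5 libraries (y axis, log scale) against annotated bases after the stop codon plus 1 (x axis, log scale) for the 51 replication-dependent genes, by family, with a dashed line at the 300-base limit. Of the 4 genes at or above 5 TPM, Hist1h2bc, Hist1h1c and Hist3h2a lie right of the line and Hist2h2ac left of it.

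The highest library in CPM was PRC1 i2KO 3 for 25 of 51 replication-dependent genes, PRC1 i2KO 1 for 11 and PRC1 i2KO 2 for 7, against 3 for Control 2 and 5 for Control 3. Over all features PRC1 i2KO 3 was highest for 18.9%. Of the 24 genes not tested, 14 were highest in PRC1 i2KO 3 and 10 in another library, and those now named were chosen after their values were seen. Hist1h1b, a linker gene tied to proliferating cells, had 3, 11 and 97 counts in PRC1 i2KO, against 1 and 1 in Control. Hist1h1a had 1, 6 and 56 counts in PRC1 i2KO, against 0 and 2 in Control. Hist1h2ab had 1, 6 and 66 counts in PRC1 i2KO, against 0 and 0 in Control. Others peaked elsewhere: Hist1h2ag had 73, 8 and 0 counts and Hist2h2aa1 had 0, 54 and 0 counts in PRC1 i2KO, with none in Control. Of the 50-base stretches of Hist2h2aa1, 89.4% occur in other transcripts, and of Hist2h2aa2, 100%, mostly in Hist2h2aa1. Hist2h2aa2, a tested gene, had 13, 12 and 0 counts in PRC1 i2KO, against 62 and 0 in Control. The division of counts between these genes is thus uncertain.

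PRC1 i2KO 3 was also the highest library for the proliferation genes Mki67, Top2a and Pcna. For these, PRC1 i2KO 1 stood above PRC1 i2KO 2, while for Hist1h1b, Hist1h1a and Hist1h2ab it stood below. The sum of the short-end histone genes had PRC1 i2KO 1 above PRC1 i2KO 2 in CPM (14.4 and 10.4) and below it in TPM (31.6 and 36.6). Mki67, a marker of cycling cells, was at 173, 38.1 and 404 CPM in PRC1 i2KO, against 13.2 and 34.0 CPM in Control (log2 fold change 3.14 ± 0.87, edgeR adjusted p 0.240). Top2a, a mitotic topoisomerase, was at 55.4, 8.17 and 135 CPM in PRC1 i2KO, against 3.47 and 15.2 CPM in Control. Pcna, the replication clamp, was at 80.5, 62.4 and 111 CPM in PRC1 i2KO, against 71.3 and 52.7 CPM in Control. The 32 S phase and proliferation genes summed to 678, 371 and 1138 CPM in PRC1 i2KO, against 363 and 386 CPM in Control, with PRC1 i2KO 2 inside the Control range. By edgeR 0 of 32 passed the adjusted threshold, with 11 higher and 0 lower at an unadjusted p under 0.05 and a median log2 fold change of 0.65. Over all genes tested, 7.43% were higher and 3.51% lower at that unadjusted level. DESeq2 called Mcm5 and Rrm2 higher, among 745 genes called higher of 30633. The part of cycling cells in the histone values was not tested.

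**Figure D5:**
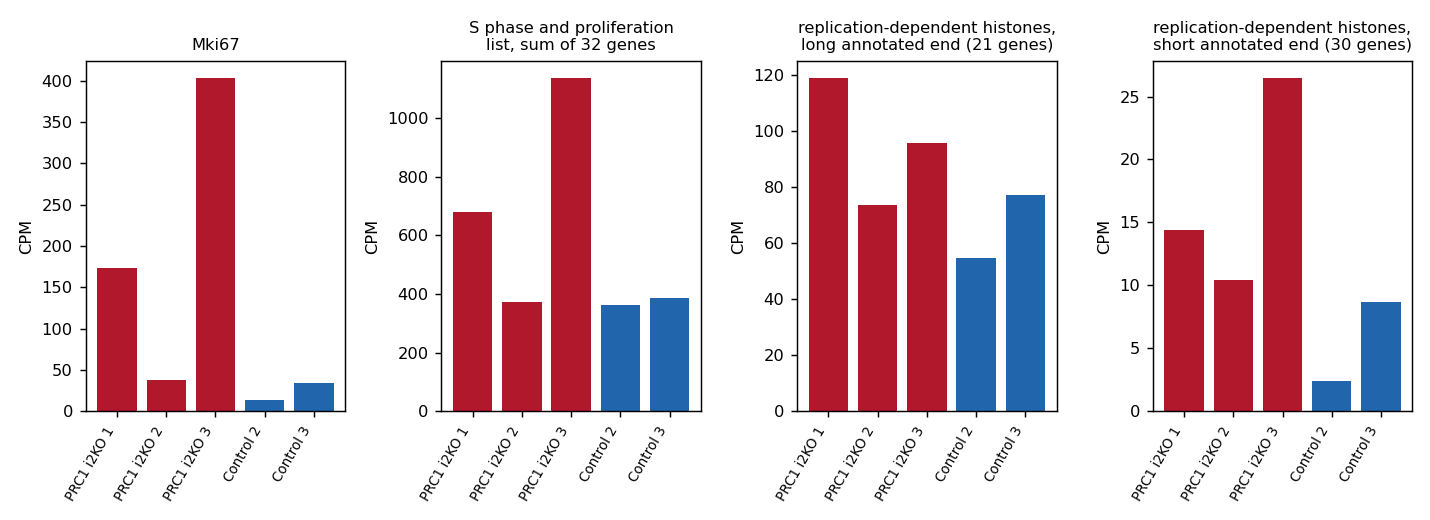
CPM per library (bars; PRC1 i2KO left, Control right) for Mki67, the sum of 32 S phase and proliferation genes, and the summed replication-dependent genes with long and short annotated ends. PRC1 i2KO 3 is the highest library for Mki67 (404 CPM), the S phase list (1138 CPM) and the short-end genes (26.5 CPM), and PRC1 i2KO 1 for the long-end genes (119 CPM).

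Genes that make and handle histones gave few differences. Of 27 histone mRNA processing genes, 0 passed the edgeR adjusted threshold, 0 had an unadjusted p under 0.05, and the median log2 fold change was -0.0033. At that unadjusted level, 7.43% of all genes tested were higher and 3.51% lower. Slbp, which binds the stem-loop, was at 15.7, 23.7 and 31.2 CPM in PRC1 i2KO, against 26.9 and 26.8 CPM in Control, with overlap. Lsm10, a subunit of the U7 particle that cleaves histone messages, had the smallest p of this list, at 4.63, 9.11 and 3.92 CPM in PRC1 i2KO, against 2.86 and 1.35 CPM in Control (edgeR adjusted p 0.477).

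Of 31 histone chaperone and exchange genes, 0 passed by edgeR, 3 were higher and 0 lower at an unadjusted p under 0.05, and the median log2 fold change was 0.13. The shares at that unadjusted level over all genes tested were 7.43% higher and 3.51% lower. Asf1b, a replication-linked H3 and H4 chaperone, was at 4.12, 0.384 and 3.67 CPM in PRC1 i2KO, against 0.0609 and 0 CPM in Control (edgeR adjusted p 0.211), and DESeq2 called it higher. Anp32e, which removes H2A.Z from chromatin, was at 184, 146 and 168 CPM in PRC1 i2KO, against 115 and 110 CPM in Control (edgeR adjusted p 0.303). Nap1l1, an H2A and H2B chaperone, was at 231, 164 and 179 CPM in PRC1 i2KO, against 124 and 137 CPM in Control (edgeR adjusted p 0.353). In CPM the PRC1 i2KO libraries stood above both Control libraries in each of these, an order seen in 14.6% of all genes tested. In TPM the order held for Asf1b alone. Anp32e had 205.2, 174.7 and 170.4 TPM in PRC1 i2KO, against 189.5 and 145.6 TPM in Control, with overlap. Nap1l1 overlapped as well, with 84.1, 89.9 and 63.1 TPM in PRC1 i2KO, against 76.7 and 59.25 TPM in Control. Cenpa, the centromeric H3 outside the member rule, was at 16.9, 7.08 and 30.5 CPM in PRC1 i2KO, against 10.1 and 6.66 CPM in Control, with overlap (edgeR adjusted p 0.538).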

How the data were processed

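The authors deposited expected counts and TPM values per feature for 5 libraries, and per the submitters' processing notes the build was mm39 and the tools included RSEM 1.3.3, STAR 2.7.9a and DESeq2 1.38.2, with no roles stated. Expected counts were rounded and tested with edgeR 4.0.16 (R 4.3.3; filterByExpr, TMM, quasi-likelihood test, group as the only term, Benjamini-Hochberg threshold 0.05 over 22181 genes). Deposited TPM values were compared on the log2(TPM + 1) scale with limma 3.58.1. Errors printed after a log2 fold change are standard errors. All 62 members matched GENCODE M21 by identifier. Because the notes name another build, coordinates are given only for RefSeq promoters. The members and gene lists were chosen with earlier results of these data known. Named by rule were the 12 replication-dependent and 10 variant members of highest mean TPM, the 5 most positive and 5 most negative tested log2 fold changes per class at 1 CPM or more, and the 3 smallest p-values of each list. Alternatives were RLE scaling, no filter, DESeq2 1.42.0, limma-voom, protein-coding features only, a pseudocount of 0.1, replicate blocks and leaving out each library. Scripts were tested on simulated data.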

Additional observations from a re-analysis of the deposited data

Results flagged for a closer look

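H3f3aos, annotated as an antisense RNA of H3f3a and not a member, averaged 1.75 CPM in PRC1 i2KO and 0.809 CPM in Control, and it was noticed because every PRC1 i2KO library (2.57, 1.56 and 1.14 CPM) lay above both Control libraries (0.508 and 1.11 CPM). That order was seen in 14.6% of all genes tested. In TPM H3f3aos overlapped between the groups, at 0.700, 6.45 and 0.335 in PRC1 i2KO, against 0.223 and 0.366 in Control. Its edgeR adjusted p was 0.708, and since the strand of counting is not given, its reads and those of H3f3a cannot be told apart.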

How the results depend on the processing

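No histone gene was called under any alternative run. Over all genes, 28 calls became 908 with DESeq2, 152 without the filter, 60 among protein-coding features only, 8 with limma on log2(TPM + 0.1), 4 with limma-voom, and between 4 and 43 with 1 library left out (4 without Control 2, 8 without Control 3, 8 without PRC1 i2KO 1, 43 without PRC1 i2KO 2 and 14 without PRC1 i2KO 3). The numbers of the libraries were not shown to pair them, since same-numbered deviations correlated at 0.083 and 0.054 by title and at -0.029 and -0.083 by description. A replicate block by title gave 165 calls and one by description 10. The replication-dependent median log2 fold change was 1.75 with DESeq2, 1.94 without the filter and 0.42 on log2(TPM + 1), and between 0.43 and 3.52 with 1 library left out, the highest without Control 3. The variant median lay between 0.39 and 0.78 with 1 library left out, the highest without Control 3, and was 0.36 among protein-coding features and 0.23 on both log2 TPM scales. The ratio of summed TPM, PRC1 i2KO over Control, was 1.59 for replication-dependent genes (1.36 to 1.92 with 1 library left out, the highest without Control 3). For variants it was 1.04, or 1.29 in CPM, 1.13 without Control 2 and 0.968 without Control 3. Without Control 3, 22 replication-dependent and 8 variant members were higher (CPM) in every PRC1 i2KO library than in Control 2, which is 43.1% and 72.7% of members, against 20.6% of all features in that design. In TPM these shares were 37.3% and 36.4%, against 10.1% of all features. Without Control 2 they were 27.5% and 45.5% in CPM, against 21.1%, and 29.4% and 36.4% in TPM, against 17.7%. Without PRC1 i2KO 2, 7 variant members were higher in both remaining PRC1 i2KO libraries (63.6% in CPM, against 17.7% of all features, and 45.5% in TPM, against 9.02%). That setting also called Mki67 among the S phase genes, as did no filter, and the block by title called Mki67 and Top2a. DESeq2 called 2 S phase genes and 1 chaperone gene.

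Of 405 combinations of 30 named members and an alternative, 374 kept their direction and 31, in 11 genes, reversed, with 0 crossing the threshold and a smallest adjusted p of 0.182. On log2(TPM + 0.1) and log2(TPM + 1), H1f0 gave -0.12 and -0.12, H2afy2 -0.24 and -0.23, H3f3a -0.21 and -0.20, and Hist3h2a -0.38 and -0.32. With limma-voom, H1fx gave -0.66, H2afy2 -0.27, Hist3h2a -0.30 and Hist2h4 0.31. Under the replicate block by title, H1fx gave -1.30, H2afy2 -0.23, Hist3h2a -0.62 and Hist2h4 0.44, and by description H1fx gave -0.45. Among protein-coding features H2afy2 gave -0.0754. Without Control 2, H1f0 gave -0.10, H1fx -0.12, Hist1h2bc -0.37, Hist1h4d -0.15, Hist2h3c1 -0.30 and Hist1h4i 1.13. Without Control 3, H2afy2 gave -0.39 and Hist2h4 1.44. Without PRC1 i2KO 1, H1fx gave -0.93, H2afy2 -0.30, Hist1h2bg -0.0519, Hist3h2a -0.59 and Hist2h4 0.24. The opposite ends of the ranges with 1 library left out were 0.49 for H1f0, 1.21 for Hist1h2bc, 9.20 for Hist1h2bg, 1.58 for Hist1h4d, -3.05 for Hist1h4i and 2.42 for Hist2h3c1 without Control 3, 0.63 for H2afy2 without Control 2, 0.66 for H1fx and 0.47 for Hist3h2a without PRC1 i2KO 2, and -1.44 for Hist2h4 without PRC1 i2KO 3. The cause of these changes was not tested. With limits of 200 and 700 bases, chosen after seeing the data, long-end genes held between 77.3% and 95.8% of replication-dependent counts. Replication-dependent counts were few, at 1084 to 3861 per library over 51 genes. Control 2, with 42916190 counts in all, had a count for 24 of these genes, and Control 3, with 11626006, for 29. The part of depth in these values was not tested.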

Other observations

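Annotated starts placed 10 pairs of members head to head within 1000 bases, on chromosomes 13 and 3, and the genes of a pair were often at unlike levels. Hist1h2ac, 251 bases from Hist1h2bc, averaged 0.0364 TPM over 5 libraries, while Hist1h2bc averaged 10.7 TPM. Hist2h2ac and Hist2h2be, 239 bases apart, averaged 5.22 and 4.45 TPM. Hist1h2ak and Hist1h2bn, 296 bases apart, averaged 3.63 and 3.93 TPM, with Hist1h2ak highest in PRC1 i2KO 3 (6.90 TPM) and Hist1h2bn highest in PRC1 i2KO 2 (12.5 TPM).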
